A study of Mus musculus with 8 samples.

Results

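The cells described here were blood progenitors with a high level of Irf8 among the stromal cells of the mouse femur, labelled as monocyte and dendritic progenitors. They were selected on their own transcripts, read out as unique molecular identifiers (UMIs), where 1 UMI is 1 transcript captured from the cell. A cell was chosen by at least 2 UMIs of Irf8, at least 2 UMIs of Ly86, Flt3 and Csf1r in sum, fewer than 20 UMIs of the basophil protease genes Mcpt8 and Prss34 per 10000, and 0 UMIs of the endothelial gene Cdh5. This rule found 380 of 45328 filtered cells (0.838%), called Irf8 progenitors below. A filtered cell held 500 to 6000 genes and at most 25% of its UMIs from mitochondrial genes.

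The study compared bone stromal cells of C57BL/6 females at 12 weeks of age. The Control mice had intact femurs, and the Fracture mice had 1 femur broken by bending at 10 weeks, stabilised with a nail in the marrow cavity and collected at day 14. Each group had 2 cell preparations with 2 droplet libraries each, and the libraries of a preparation were summed, so that n = 2 per group. The labels name no transgene and do not say how many mice went into a preparation. Before encapsulation, magnetic beads had removed CD45-positive, CD117-positive and lineage-positive blood cells from every suspension, so the progenitors were cells that passed this step, and a different efficiency of depletion between the suspensions cannot be told apart from an effect of fracture.

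IRF8 is the transcription factor that directs myeloid progenitors in the bone marrow towards monocytes and dendritic cells and away from neutrophils. FLT3 and CSF1R are the receptors for the cytokines FLT3 ligand and CSF1, on which dendritic cells and monocytes depend, and LY86 is a partner of the Toll-like protein RP105 on immune cells. Monocytes in turn give rise to macrophages and osteoclasts, the cells that resorb bone. In the mouse genome (GRCm38), Irf8 lies on chromosome 8 at 120736358 to 120756694 on the plus strand, Ly86 on chromosome 13 at 37345208 to 37419036 on the plus strand, Flt3 on chromosome 5 at 147330741 to 147400489 on the minus strand, and Tifab, a marker that the rule did not use, on chromosome 13 at 56173704 to 56178885 on the minus strand. All 4 are protein-coding genes.

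The filtered cells of a library held between 47001183 and 87791987 UMIs in total. The shallowest filtered cell had 529 UMIs in the Control libraries and 1929 in the Fracture libraries. Both tables of Control preparation 1 held no entry for 368 genes, among them all 290 whose symbol begins with U, and these genes took 1.26% to 1.41% of the UMIs of the other libraries. They were treated as missing and left out of every level. At most 23 barcodes were shared by any pair of libraries, and no barcode was a progenitor in 2 libraries. Fracture 1 library 2 held 1 progenitor, and the share, the ratio and the cell cycle share are also given without it.

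Irf8 progenitors were found mainly in Control bone. Control preparation 1 held 302 among 12755 cells (2.37%, 95% exact binomial interval 2.11% to 2.65%), and Control preparation 2 held 62 among 7921 (0.783%, 0.601% to 1.00%). Fracture preparation 1 held 6 among 11867 cells (0.0506%, 0.0186% to 0.110%), and Fracture preparation 2 held 10 among 12785 (0.0782%, 0.0375% to 0.144%). Both Control preparations lay above both Fracture preparations, with the nearest pair 10.0-fold apart, and the Control preparations themselves differed beyond their counting intervals.

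Control averaged 1.58% ± 1.12 and Fracture 0.0644% ± 0.0196 (SD, n = 2 each). The two-sided exact permutation test gave p = 0.333, which is the smallest that 2 against 2 preparations allow. With each library taken as a sample the exact permutation p was 0.0286, but libraries of 1 preparation share their cells' source. The Control libraries held 154 and 148 progenitors in preparation 1 and 30 and 32 in preparation 2, and the Fracture libraries held 5 and 1 in preparation 1 and 5 and 5 in preparation 2. With Fracture 1 library 2 left out, the mean Fracture share was 0.0822%.

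**Figure D1:**
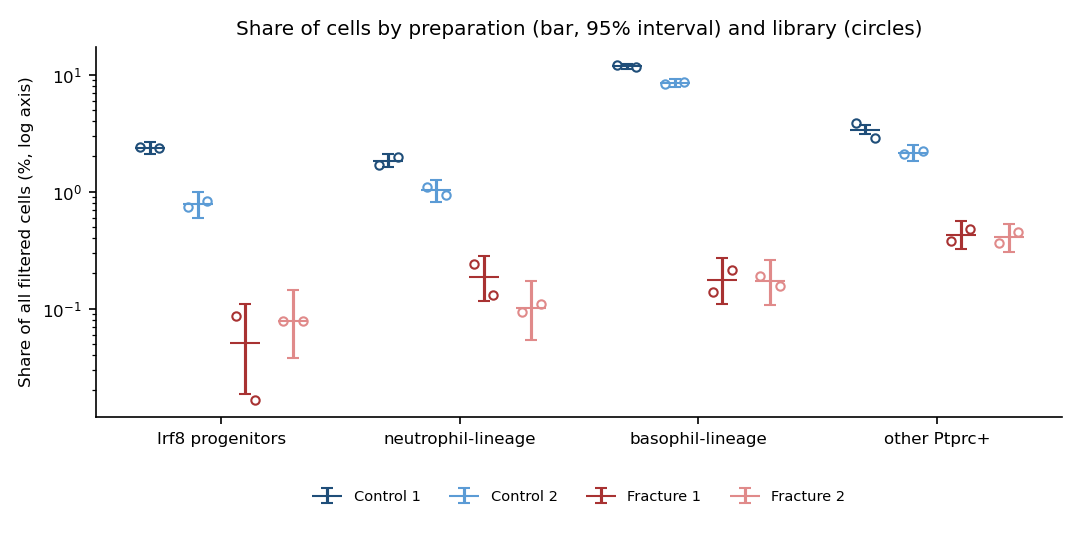
Share of all filtered cells, in percent on a log axis, for Irf8 progenitors and 3 other classes of blood cells in each preparation. Bars give the preparation with its 95% exact binomial interval and circles the 2 libraries. In all 4 classes both Control preparations lie above both Fracture preparations.

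Other blood cells were scarce in Fracture as well. Neutrophil-lineage cells, defined by at least 20 UMIs of the granule genes Mpo, Elane, Prtn3 and Ctsg per 10000 and not meeting the progenitor rule, numbered 234 and 81 in Control and 22 and 13 in Fracture. Their limits on Mcpt8, Prss34 and Cdh5 were those of the progenitors. Basophil-lineage cells, with at least 20 UMIs of Mcpt8 and Prss34 per 10000, numbered 1506 and 672 in Control and 21 and 22 in Fracture. Basophil and mast cell genes summed to 17.3 and 19.4 UMIs per 10000 in the neutrophil-lineage cells of Control. The sums were 1.31 and 0.320 in the progenitors and 527 and 568 in basophil-lineage cells. This list holds Mcpt8 and Prss34, by which basophil-lineage cells were divided from both other classes, so the contrast with them was largely fixed by the limits. The neutrophil-lineage class thus carried some basophil or mast cell RNA, and its part in the comparisons below was not tested. The remaining cells with a UMI of Ptprc, the gene of CD45, numbered 432 and 170 in Control and 51 and 52 in Fracture. Cells in none of these classes are called the cells without Ptprc below, although some cells of the progenitor class also lacked it.

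Set against neutrophil-lineage cells, the groups overlapped, although they did not under 3 other settings. The ratio was 1.29 and 0.765 progenitors per neutrophil-lineage cell in Control and 0.273 and 0.769 in Fracture, so that Control 2 and Fracture 2 were level. The neutrophil-lineage cells were of unlike makeup, with 0.391 UMIs of late neutrophil genes per 10000 in Control 1, 115 in Control 2 and 253 and 331 in Fracture, and the part of this in the ratio was not tested. Control averaged 1.03 ± 0.371 and Fracture 0.521 ± 0.351 (SD, n = 2 each, two-sided exact permutation test, p = 0.667), and without Fracture 1 library 2 the mean Fracture ratio was 0.563. With at least 50 granule UMIs per 10000 the ratios were 2.42 and 1.27 against 0.4 and 1, and with all cells thinned to 3000 UMIs they were 0.505 and 0.327 against 0.148 and 0.167, so that both Fracture values lay under both Control values (exact permutation p = 0.333 each, the smallest possible), as they did without cluster 5 described below. Among cells with Ptprc, progenitors made up 14.7% and 7.16% in Control and 6.10% and 8.97% in Fracture, and here too the groups overlapped (exact permutation p = 0.667). Per basophil-lineage cell there were 0.201 and 0.0923 progenitors in Control and 0.286 and 0.455 in Fracture, the opposite order. Per remaining cell with Ptprc there were 0.699 and 0.365 in Control and 0.118 and 0.192 in Fracture. Here both Fracture values lay under both Control values.

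Ptprc itself was found in 80.8% and 87.1% of the progenitors in Control and in 5 of 6 and 7 of 10 in Fracture. Kit, the gene of CD117, was found in 36.4% and 30.6% in Control, where the progenitors were the deepest cells. With each cell thinned to 1000 UMIs it was found in 3.97% and 3.23% of them, against 11.1% and 7.50% of neutrophil-lineage cells and 1.16% and 1.26% of the cells without Ptprc.

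The limits on Irf8, on Ly86, Flt3 and Csf1r and on Cdh5 counted UMIs per cell, and in Control the progenitors were the deepest class. Their median depth was 18009 and 25201 UMIs per cell in Control against 10883 and 15932 in neutrophil-lineage cells and 6773 and 7758 in the cells without Ptprc. In Fracture the progenitors had medians of 9743 and 8023 UMIs, below those of all cells there (11011 and 11694). The progenitors held 2 to 111 UMIs of Irf8 with a median of 23, but the medians were 10 in Fracture 1 and 3 in Fracture 2. For Ly86, Flt3 and Csf1r in sum the medians were 6 and 3 in Fracture against 11 and 14.5 in Control. The Fracture cells thus lay closer to the limits than the Control cells. Just outside, 13 Control cells and 1 Fracture cell met every other condition with 1 UMI of Irf8, and just inside, 9 Control and 4 Fracture cells had 2 and another 7 and 4 had 3. With 0 UMIs of Ly86, Flt3 and Csf1r in sum, 233 Control and 51 Fracture cells met every other condition. With 1 UMI there were 15 Control cells and 0 Fracture cells, with 2 there were 22 and 6, and with 3 there were 15 and 3. The basophil limit alone left out 4 Control cells, and Cdh5 alone left out 7 Control and 4 Fracture cells.

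Levels are given as CPM, counts per 1e+06 summed UMIs of a class in a preparation. The Fracture levels rest on 6 and 10 cells, and the 2 libraries of Fracture 2 held 5 progenitors each and often differed, so that their values are given, library 1 first, where 1 of them moved the level over 1.5-fold. The 4 rule genes chose the cells, so their levels are a description. Irf8 stood at 1390 and 1495 CPM in Control, preparation 1 first here and below, and 846 and 555 CPM in Fracture, against 32.3 and 11.3 CPM in the neutrophil-lineage cells of Control. Ly86 stood at 333 and 334 CPM in Control and 287 and 149 CPM in Fracture. Flt3 was at 204 and 146 CPM in Control and 196 and 149 CPM in Fracture, at 105 CPM in Fracture 1 without library 2, and at 198 and 56.7 CPM in the libraries of Fracture 2. Csf1r was at 107 and 109 CPM in Control and 69.4 CPM in Fracture 2 (30.5 and 142 CPM in its libraries), while Fracture 1 held 0 UMIs of it among 66232, where 3 counts would be 45.3 CPM and the exact Poisson interval reached 55.7 CPM, for counting error only. Irf8, Ly86 and Csf1r were thus nearly equal in both Control preparations and Flt3 was lower in Control 2.

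Tifab, an inhibitor of signalling through TRAF6, was the marker outside the rule. Its level was 186 and 231 CPM in Control and 60.4 and 99.1 CPM in Fracture, which rest on 4 and 10 UMIs with exact Poisson intervals of 16.5 to 155 and 47.5 to 182 CPM, and was 60.9 and 170 CPM in the libraries of Fracture 2. It was found in 81.3% of the progenitors. Neutrophil-lineage cells of Control had 6.77 and 8.29 CPM, and basophil-lineage cells had 1.21 and 0.799 CPM.

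**Figure D2:**
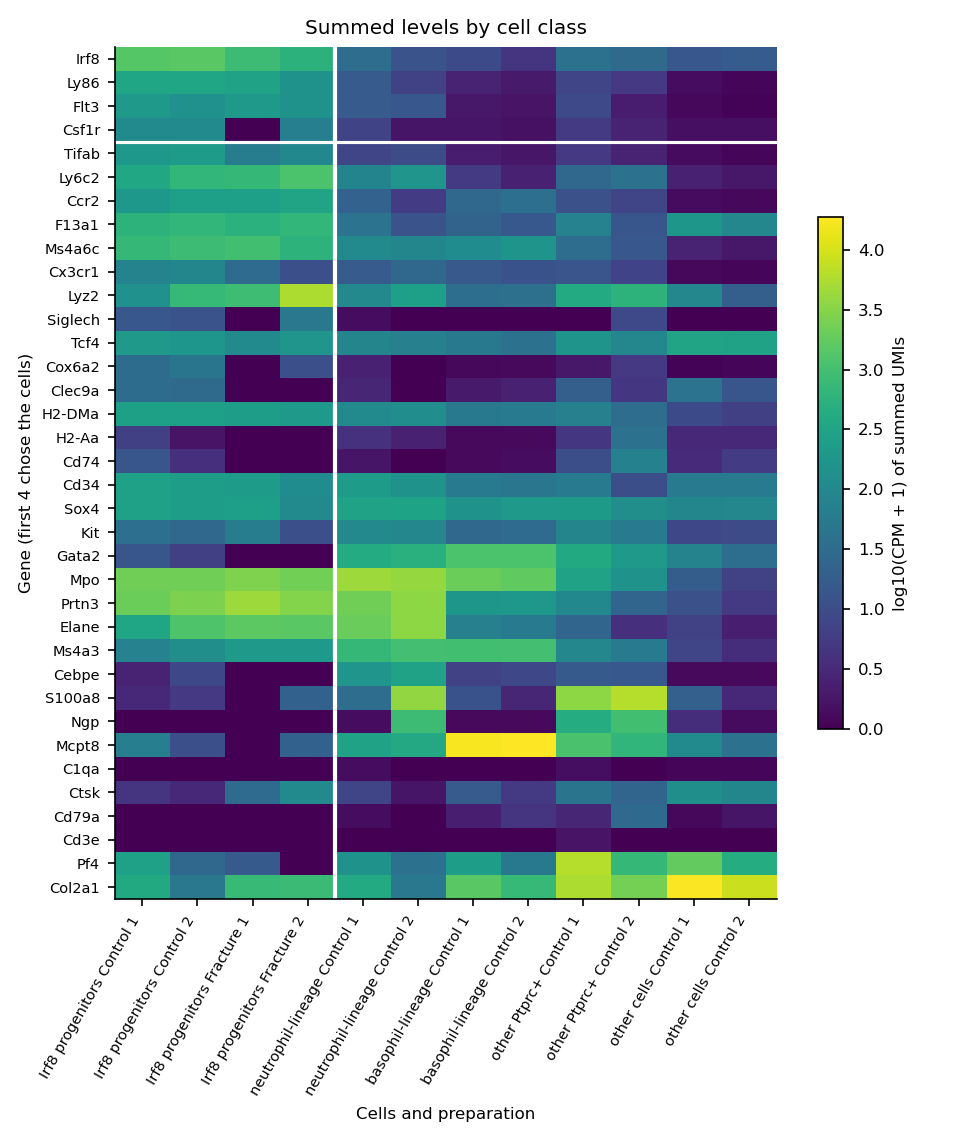
Levels of 36 genes as log10(CPM + 1) of summed UMIs in the Irf8 progenitors of the 4 preparations and in 4 other classes of the Control preparations. The first 4 genes chose the cells. Tifab, Ly6c2, Ccr2, F13a1 and Ms4a6c are high in the progenitors of all 4 preparations. The rows for single markers of macrophages, B cells and T cells (C1qa, Cd79a and Cd3e) are at or near 0 there.

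Beyond the rule, 15 genes had the largest ratio of their level in the progenitors to that in all other cells, taken as means over the 4 preparations with at least 100 CPM in the progenitors. In falling order of the ratio they were Dntt, Tifab, Bex6, Pld4, Ly6c2, Ctss, Kcnk12, Mpeg1, BC035044, Ccr2, Ms4a6c, Prtn3, Cfp, Lyz2 and Ncf4, with ratios from 1251 to 41.2. They are given as a description, since the same cells were picked by genes that move with them. Several belong to known functions of phagocytes: Ctss is a lysosomal protease of antigen processing, Mpeg1 forms pores in engulfed bacteria, Cfp is the complement factor properdin and Ncf4 a subunit of the phagocyte oxidase.

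Dntt and Lyz2 owed their rank to Fracture 2. Without that preparation the ratio of Lyz2 was 11.3, and in Control 1 its level was 142 CPM against 99.7 CPM in all other cells. Pld4 and Kcnk12 were close to the minimum of 100 CPM and fell under it without Fracture 1, as Pld4 did without Fracture 2 (93.5 CPM). Dntt, the gene of the DNA polymerase that adds bases during antigen receptor recombination, was found in only 8.68% of the progenitors, with 50.9 and 63.3 CPM in Control, 0 UMIs in Fracture 1 and 317 CPM in Fracture 2. The Fracture 2 value came from 2 cells of 1 library, and without that library the mean level of Dntt was 28.6 CPM, under the minimum of 100 CPM, and its ratio was 324, below that of Tifab. In Control 1 and 2, 1 cell each gave 128 of 265 and 57 of 93 UMIs. The other 14 genes were found in 60.8% (Pld4) to 96.3% (Ms4a6c) of the cells.

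Some monocyte genes were found in most progenitors, Ly6c2 in 71.6%, Ccr2 in 76.8% and Ms4a6c in 96.3%. In cluster 1 described below, Ly6c2 was found in 31.25% and 22.2% of the cells of Control 1 and 2. Ly6c2, the surface marker of inflammatory monocytes, stood at 346 and 679 CPM in Control and 710 and 1140 CPM in Fracture. Ccr2, the chemokine receptor by which monocytes leave the marrow, stood at 186 and 257 CPM in Control and 257 and 317 CPM in Fracture. Both were lowest in Control 1 and highest in Fracture 2, where the libraries had 366 and 2581 CPM of Ly6c2 and 183 and 567 CPM of Ccr2. Single cells carried much of the Fracture 1 values, 30 of 47 UMIs for Ly6c2 and 11 of 17 for Ccr2, and no order of the groups can be read from these few cells.

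F13a1, the coagulation factor XIII subunit made by monocytes, stood at 578 and 665 CPM in Control and 544 and 664 CPM in Fracture. Ms4a6c, a membrane protein of the myeloid MS4A family, stood at 708 and 846 CPM in Control and 936 and 585 CPM in Fracture. The groups overlapped for both, and the libraries of Fracture 2 had 396 and 1163 CPM of F13a1. Of 10 monocyte markers, 8 reached 20 CPM in progenitors or neutrophil-lineage cells, and 7 of these were at least 2-fold higher in the progenitors in both Control preparations, namely Ly6c2, Ccr2, F13a1, Ms4a6c, Cx3cr1, Ms4a4c and Klf4. Over all 6523 genes that reached this level, 4.97% were at least 2-fold higher and 5.55% at least 2-fold lower in both preparations. The counts of the lists below stand beside these shares. The cells of this comparison were chosen by Irf8 and its companions, so the counts describe them and are not tested. The eighth, Lyz2, was 142 and 726 CPM in the progenitors and 100 and 262 CPM in the neutrophil-lineage cells, and without 1 cell its level in Control 2 was 361 CPM. Fcgr1, the high-affinity immunoglobulin receptor of mature monocytes and macrophages, stood at 1.35 and 0 CPM.

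Dendritic markers were mostly at low levels. Of 10 genes of conventional dendritic cells, 2 could be compared and 1, Clec9a, a receptor for dead cells, was higher, with 31.0 and 29.3 CPM against 1.88 and 0 CPM. Itgax, Zbtb46, Batf3, Xcr1 and Cd209a were all under 10 CPM in both Control preparations. Of 10 genes of plasmacytoid dendritic cells, 3 could be compared and all 3 were higher: the membrane protein gene Bst2 at 333 and 332 CPM against 150 and 133 CPM, the transcription factor gene Tcf4 at 201 and 176 CPM against 88.4 and 71.6 CPM, and Cox6a2 at 31.3 and 45.6 CPM against 1.5 and 0 CPM. Siglech, a surface marker of these cells, was at 13.6 and 11.6 CPM and was found in 11.3% of the progenitors. The 10 plasmacytoid genes summed to 5.95 and 5.79 UMIs per 10000 in the Control progenitors and 2.42 and 2.06 in neutrophil-lineage cells. The sums were 1.65 and 1.43 in basophil-lineage cells, 2.88 and 2.60 in the other cells with Ptprc and 4.70 and 5.41 in the cells without Ptprc.

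The machinery of MHC class II was represented by its peptide-loading chaperone and not by the presenting molecules. H2-DMa stood at 271 and 259 CPM in Control and 242 and 198 CPM in Fracture, against 104 and 122 CPM in the neutrophil-lineage cells of Control. The chain gene H2-Ab1 was the highest of its kind, at 19.0 and 15.7 CPM against 36.5 and 36.9 CPM. The chain genes H2-Aa and H2-Eb1 were at most 5.38 CPM, the invariant chain gene Cd74 was at 12.9 and 2.72 CPM, with 58 of 67 UMIs of Control 1 in 1 cell, and Ciita, the master regulator of class II, had 0 UMIs in all 380 cells. Class I genes were neither 2-fold higher nor lower for any of 8 compared, with a median log2 ratio of 0.05 beside 0.07 over all genes compared. B2m, the light chain of class I, stood at 961 and 1004 CPM.

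Genes of early progenitors were in part shared with neutrophil-lineage cells. Cd34, a surface glycoprotein of progenitors, stood at 280 and 238 CPM in Control and 226 and 119 CPM in Fracture. The transcription factor gene Sox4 stood at 273 and 242 CPM in Control and 257 and 109 CPM in Fracture. For both, Fracture 2 was lowest, with 168 and 28.4 CPM of Cd34 and 168 and 0 CPM of Sox4 in its libraries, and the other 3 preparations lay together. Neutrophil-lineage cells held like levels of Cd34 (217 and 152 CPM) and Sox4 (290 and 301 CPM). Of 7 early genes compared, 3 were at least 2-fold lower in the progenitors (beside 5.55% of all genes compared) and none higher: Kit, the receptor for stem cell factor (36.0 and 26.6 against 100 and 95.7 CPM), Gata2, a factor of stem, mast and basophil cells (13.1 and 5.45 against 424 and 510 CPM), and Myb, a factor of cycling progenitors (269 and 278 against 601 and 596 CPM).

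Granule genes were present at high levels. Mpo, the myeloperoxidase gene, stood at 2222 and 2239 CPM in Control and 2823 and 2309 CPM in Fracture. Prtn3, the gene of proteinase 3, stood at 2056 and 2725 CPM in Control and 4424 and 3013 CPM in Fracture. Neither granule gene was thus lower in the Fracture preparations than in both Control preparations. Of 9 granule genes, 5 were at least 2-fold lower than in neutrophil-lineage cells (Elane, Ctsg, Ms4a3, Srgn and Nkg7) and none was higher, a median log2 ratio of -1.21. This comparison was fixed in part by construction, since neutrophil-lineage cells were picked by Mpo, Elane, Prtn3 and Ctsg. Genes of the later neutrophil steps were almost absent. Cebpe, the factor of the promyelocyte step, stood at 1.54 and 7.49 CPM against 166 and 291 CPM, and Ngp and Ltf, genes of secondary granules, had 0 UMIs.

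Elane, the neutrophil elastase gene, was unequal between the Control preparations, with 343 CPM in Control 1 and 1266 CPM in Control 2. The Fracture preparations had 1540 and 1526 CPM. Neutrophil-lineage cells showed the same order, with 2002 and 3550 CPM in Control 1 and 2. Hspa1a and Hspa1b, genes of the heat shock protein HSP70, also differed between the Control preparations in the progenitors, 4.42 against 61.3 CPM and 8.84 against 125 CPM, and did so in neutrophil-lineage cells (6.02 against 54.3 and 10.5 against 124 CPM).

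Lineage transcription factors were measured from a list of 24. Of 18 compared, 4 were at least 2-fold higher in the progenitors than in neutrophil-lineage cells and 3 lower, beside 4.97% and 5.55% of all genes compared, with a median log2 ratio of 0.10. The higher ones were Irf5 (30.8 and 36.8 against 4.14 and 3.01 CPM), a factor of inflammatory gene expression, Klf4 (62.3 and 99.4 against 16.9 and 5.28 CPM), needed for monocytes, Tcf4, which directs plasmacytoid dendritic cells, and Nfil3 (30.4 and 61.3 against 12.4 and 13.6 CPM). The lower ones were Cebpa (45.2 and 49.0 against 140 and 151 CPM), needed for granulocytes, Gfi1 (4.61 and 3.40 against 21.1 and 30.9 CPM), a repressor with a role in neutrophil formation, and Stat5a. Spi1, the gene of PU.1, the factor shared by myeloid cells, stood at 267 and 334 CPM against 164 and 210 CPM, and Zeb2 at 417 and 445 against 290 and 274 CPM, both under the 2-fold limit.

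**Figure D3:**
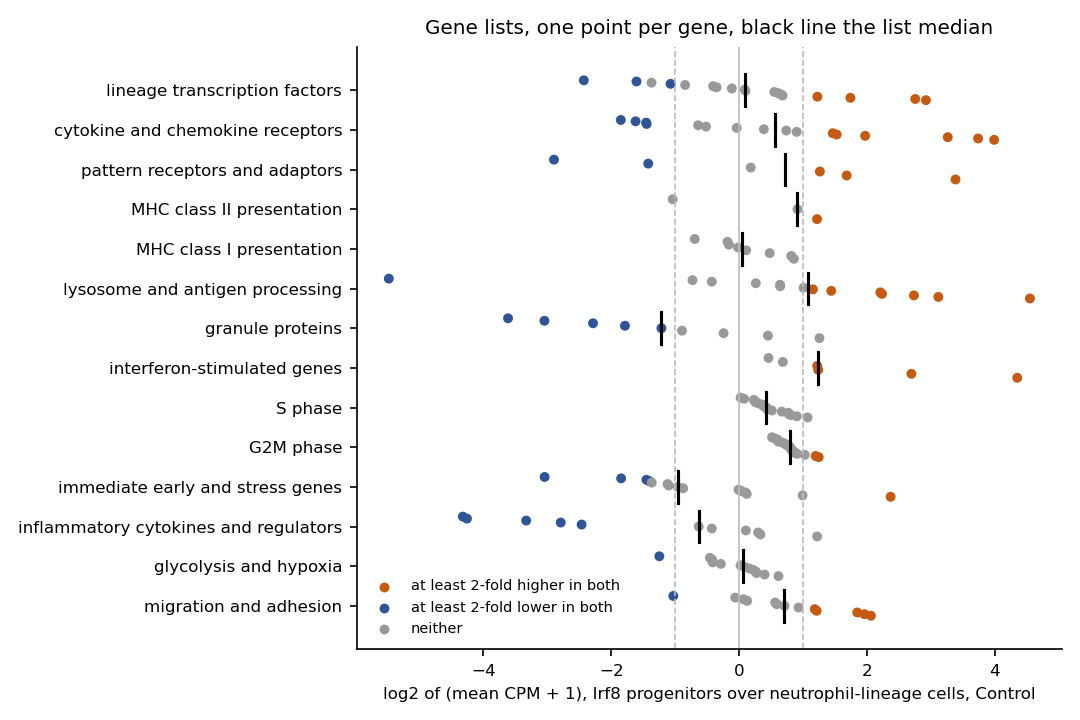
Log2 ratio of the mean level in Irf8 progenitors to that in neutrophil-lineage cells over the 2 Control preparations, on the scale of CPM + 1, 1 point per gene and 1 row per list. The black lines are list medians and the dashed lines 2-fold. The granule, stress and inflammatory lists lie to the left and the lysosome and interferon lists to the right.

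Cytokine and chemokine receptors gave 6 higher and 4 lower of 16 compared, beside 4.97% and 5.55% of all genes compared, with a median log2 ratio of 0.56. Il6st, the signalling chain shared by receptors of the interleukin 6 family, stood at 140 and 146 CPM against 14.3 and 5.28 CPM, and Il6ra, the binding chain for interleukin 6, at 46.3 and 68.8 against 4.14 and 6.03 CPM. Ifngr2 and Ifnar2, chains of the interferon receptors, were the others besides Ccr2 and Cx3cr1. The lower ones were Csf2rb, the common chain for GM-CSF, interleukin 3 and interleukin 5 (41.9 and 52.4 against 136 and 124 CPM), Ifngr1, Kit and Tgfbr2. Tnfrsf11a, the gene of RANK, the receptor that drives osteoclast formation, stood at 0.385 and 0 CPM.

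Lysosomal and antigen processing genes were often higher than in neutrophil-lineage cells, but not than in all other classes. Summed, they took 37.0 and 40.4 UMIs per 10000 in the Control progenitors and 34.5 and 35.0 in neutrophil-lineage cells. The sums were 52.1 and 48.2 in basophil-lineage cells, 38.8 and 29.4 in the other cells with Ptprc and 87.5 and 63.1 in the cells without Ptprc. Of 14 compared, 7 were at least 2-fold higher and 1 lower, beside 4.97% and 5.55% of all genes compared, with a median log2 ratio of 1.08. Ctss, the cathepsin that trims the invariant chain, stood at 122 and 135 CPM in Control and 136 and 119 CPM in Fracture (60.9 and 227 CPM in the libraries of Fracture 2), against 3.76 and 5.28 CPM in neutrophil-lineage cells. Psap, the precursor of the saposins, stood at 373 and 429 against 70.3 and 48.2 CPM, and Ctsh at 206 and 214 against 41.4 and 46.0 CPM. The remaining ones were Ctsb, Lgmn, Cd68 and Ifi30. The lower one was Cd63, a tetraspanin of granules, at 47.3 and 19.1 against 1365 and 1687 CPM.

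Innate sensing and adhesion genes followed. Of 6 pattern receptors and adaptors compared, 3 were higher: Tyrobp (838 and 1074 against 260 and 334 CPM) and Fcer1g (786 and 825 against 350 and 320 CPM), signalling adaptors of myeloid receptors, and Clec7a, the receptor for fungal glucan. The immunoglobulin receptor genes Fcgr2b and Fcgr3 were lower. Pattern receptors and adaptors summed to 21.6 and 24.3 UMIs per 10000 in the Control progenitors and 42.4 and 48.4 in basophil-lineage cells. The sums were 12.1 and 14.4 in neutrophil-lineage cells, 9.45 and 7.80 in the other cells with Ptprc and 1.94 and 1.27 in the cells without Ptprc. Tlr4, Tlr7 and Tlr9 were each under 3 CPM in both Control preparations. Of 13 adhesion and migration genes, 5 were higher and 1, Itga4, lower, beside 4.97% and 5.55% of all genes compared. Among the higher ones were Selplg, a glycoprotein for rolling on vessel walls (324 and 367 against 102 and 88.2 CPM), Cd44, the hyaluronan receptor (255 and 212 against 68.1 and 50.5 CPM), Cd52 and Coro1a.

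Of 21 interferon-stimulated genes in the tables of every preparation, 6 reached the level for comparison and 4 of them were higher (Ifi27l2a, Ifi203, Irf9 and Bst2). Ifi203, a DNA-binding protein of the interferon response, stood at 220 and 208 against 32.7 and 31.7 CPM. Common responders to interferon such as Isg15 (6.34 and 2.72 CPM), Ifit1 and Ifit3 were under 10 CPM in both Control preparations. The list summed to 10.2 and 11.6 UMIs per 10000 in the Control progenitors, 5.39 and 5.35 in neutrophil-lineage cells and 4.44 and 4.38 in basophil-lineage cells. The sums were 11.3 and 10.4 in the other cells with Ptprc and 12.2 and 15.4 in the cells without Ptprc.

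Some immediate early and inflammatory genes were lower. Of 15 stress genes compared, 4 were at least 2-fold lower and 1, Klf2, higher, with a median log2 ratio of -0.96. Jun, a subunit of the AP-1 factor, stood at 266 and 318 against 1240 and 862 CPM, and Dusp1, a phosphatase that ends MAP kinase signals, at 90.0 and 38.8 against 687 and 388 CPM. Fos, the partner of Jun, did not follow, with 1742 and 1092 against 1946 and 814 CPM. Of 11 inflammatory genes compared, 5 were lower and none higher, where 5.55% of all genes compared were lower. Nfkbia and Tnfaip3, inhibitors of NF-kB, stood at 149 and 112 against 1094 and 721 CPM and at 22.3 and 8.17 against 387 and 232 CPM, and the others were Nfkbiz, Cxcl2 and Il6. The Jun, Dusp1, Nfkbia and Tnfaip3 levels of neutrophil-lineage cells were all lower in Control 2 than in Control 1. For 14 glycolysis genes only Hk1 was past the limit, lower in the progenitors, a count near the share of 5.55% over all genes compared.

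Genes of the cell cycle stood high beside neutrophil-lineage cells. All 18 S phase and all 19 G2 and M phase genes compared had a mean level above that of neutrophil-lineage cells in Control. Their median log2 ratios were 0.42 and 0.79, beside 0.07 over all genes compared. Only Cenpf and Aurka among them passed 2-fold in both preparations, where 4.97% of all genes compared were at least 2-fold higher. S phase genes summed to 29.5 and 27.4 UMIs per 10000 in the Control progenitors and 16.2 and 39.5 in the other cells with Ptprc. For G2 and M phase genes the sums were 47.5 and 49.9 against 18.1 and 46.2. Top2a, the topoisomerase of dividing cells, stood at 946 and 941 CPM in Control and 861 and 416 CPM in Fracture (592 CPM in Fracture 1 without library 2), against 541 and 586 CPM in neutrophil-lineage cells. Mki67, the gene of the Ki-67 antigen, stood at 556 and 643 CPM in Control and 317 and 337 CPM in Fracture, against 281 and 305 CPM. Fracture 2 had the lowest Top2a level and both Fracture preparations were below Control for Mki67, on 21 and 34 UMIs, although the libraries of Fracture 2 had 228 and 539 CPM of Mki67.

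To compare cells at 1 depth, each was thinned at random to 1000 UMIs. Then 61.6% (95% exact binomial interval 55.8% to 67.1%) and 64.5% (51.3% to 76.3%) of the Control progenitors held Top2a or Mki67, against 42.5% and 36.3% of neutrophil-lineage cells, 34.9% and 36.9% of basophil-lineage cells, 24.8% and 49.7% of the other cells with Ptprc and 8.33% and 25.2% of the cells without Ptprc. The progenitors had the highest share of the 5 classes in both Control preparations, but in Control 2 the interval of the other cells with Ptprc (41.9% to 57.5%) overlapped theirs. Before thinning 91.7% and 93.5% of the progenitors held 1 of the genes. No progenitor was left out for depth, and 8 and 1 neutrophil-lineage cells were.

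In Fracture, 4 of 6 (66.7%, 22.3% to 95.7%) and 4 of 10 progenitors (40.0%, 12.2% to 73.8%) held Top2a or Mki67 after thinning. Control averaged 63.1% ± 2.07 and Fracture 53.3% ± 18.9 (SD, n = 2 each), and the groups overlapped (two-sided exact permutation test, p = 1). The intervals of the Fracture preparations, which cover counting error only, include both Control values. With 2 preparations per group the exact permutation test could not give a p under 0.333, so it could not detect a difference. Without Fracture preparation 2 the direction turned, from 9.72 percentage points lower to 3.61 points higher in Fracture. Without Fracture 1 library 2 the Fracture values were 60% and 40%, 13.1 points lower on average, and the groups no longer overlapped (exact permutation p = 0.333, the smallest possible). Without thinning, with thinning to 3000 UMIs and without cluster 5, both Fracture values lay under both Control values, by means of 5.97, 8.5 and 13.8 points (exact permutation p = 0.333 each, the smallest possible). The unthinned shares depend on depth, with medians of 9743 and 8023 UMIs in the Fracture progenitors against 18009 and 25201 in Control. The setting without cluster 5 left out 2 of 6 and 6 of 10 Fracture progenitors, so its Fracture shares rest on very few cells.

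**Figure D4:**
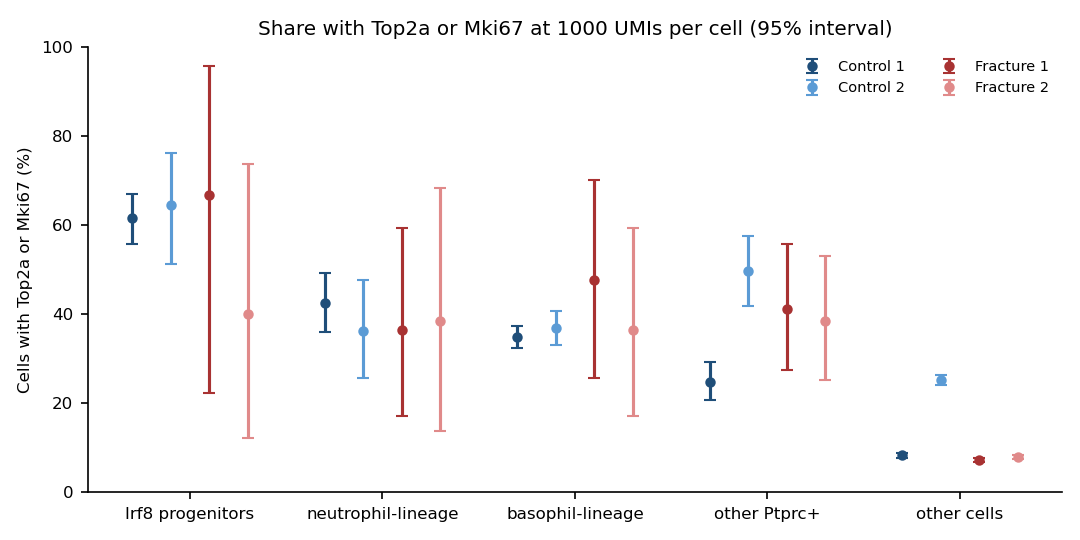
Percentage of cells that held Top2a or Mki67 once each cell was thinned to 1000 UMIs, by class and preparation with 95% exact binomial intervals. The Irf8 progenitors have the highest points of the 5 classes in both Control preparations, and their Fracture intervals span most of the axis.

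The progenitors were split by clustering without the rule genes and the listed cell cycle, mitochondrial and ribosomal genes. The clusters are described by their leading genes, with no names and no tests. Cluster 1 (78 cells) was led by Dntt, at 271 and 646 CPM in Control 1 and 2, but Dntt was found in 28.1% and 33.3% of its cells, and without the 1 highest cell of each preparation the levels were 129 and 294 CPM. The cluster held high Flt3 (337 and 327 CPM) and low Ly6c2 (36.4 and 55.6 CPM). Cluster 1 went against the label in part, since genes known from lymphoid cells, Il7r (25 and 104 CPM, 12.9 and 45.2 CPM without the highest cells), Blnk and Arpp21, were among its leading genes. So were the immediate early gene Nr4a1 (528 and 292 CPM, at most 325 and 80.3 CPM in the other clusters) and the chemokine gene Ccl4, whose level in Control 2 came from 1 cell for 20 of 26 UMIs. Cluster 2 (83 cells) had few genes of its own, with 6 histone genes, such as Hist1h1d and Hist1h1e, among its 25 leading genes and Mus81 and B4galt4 as the first ones.

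Cluster 3 (94 cells) was led by granule genes, with Mpo at 4312 and 4396 CPM, Elane at 1009 and 2657 CPM and Ms4a3 at 229 and 302 CPM, and held the lowest Irf8 of clusters 1 to 4 (849 and 968 CPM). In Control 2, cluster 5 described below held more Elane (4389 CPM, 414 of 656 UMIs from 1 cell) and Prtn3 (5239 against 4087 CPM). In Control 1 it held 54.2 and 835 CPM of these genes, less than cluster 3. Cluster 4 (101 cells) held the highest Irf8 (2001 and 2395 CPM). It was led by Rnase6, Kmo, Cd300c, Itgb7 and Siglech, the last found in 24.7% and 31.25% of its cells in Control 1 and 2. Mitotic genes such as Aspm, Plk1 and Cenpf came next among its leading genes, and Runx2 and Clec9a ranked behind these. Mpo was lowest in cluster 4 (911 and 666 CPM). Both Control preparations had Irf8 highest in cluster 4, then 2, 1 and 3, and the most Mpo in cluster 3 and the least in cluster 4. Cells of both were clustered together and Mpo was a leading gene of cluster 3, so this describes the clusters and does not test agreement. The Control preparations had similar proportions, with 21.2%, 22.8%, 24.5% and 28.1% of Control 1 and 14.5%, 21.0%, 29.0% and 25.8% of Control 2 in clusters 1 to 4.

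**Figure D5:**
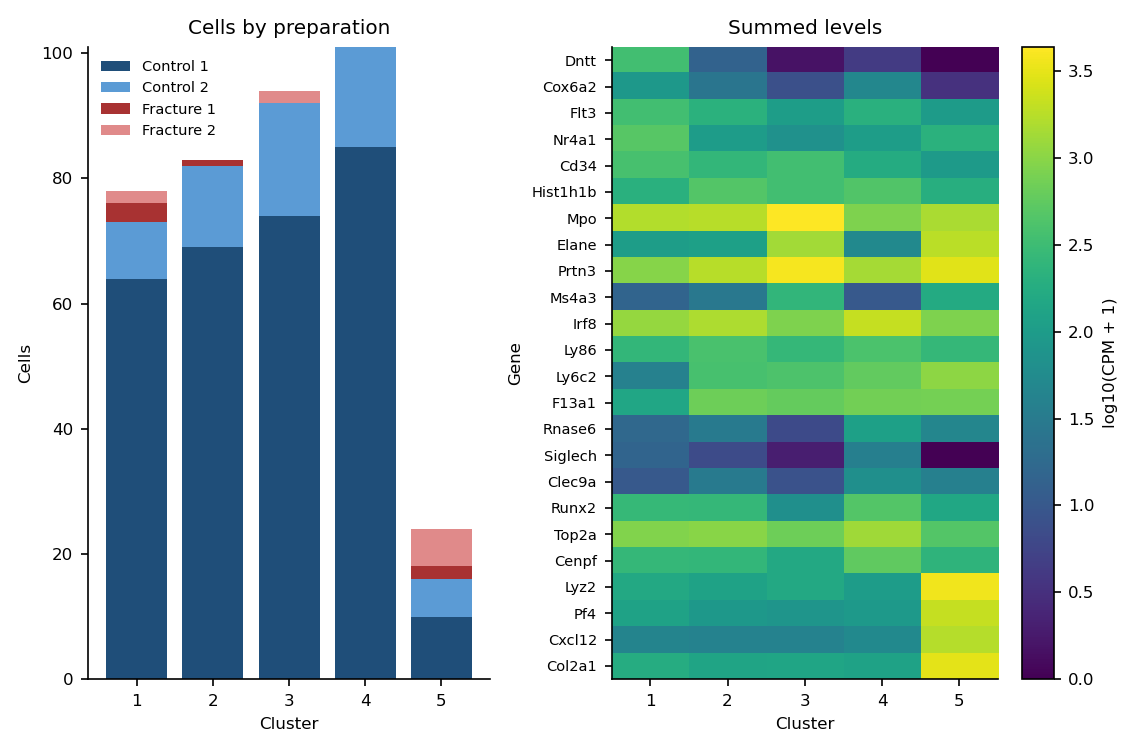
Cells of each cluster of the Irf8 progenitors by preparation (left) and summed levels of 24 genes as log10(CPM + 1) by cluster (right). Dntt is highest in cluster 1, Mpo and Ms4a3 in cluster 3, Rnase6 and Siglech in cluster 4, and Lyz2, Pf4 and stromal genes in cluster 5, where Pf4 and Col2a1 of Control 1 are largely 1 cell each. Cluster 5 holds 8 of the 16 Fracture cells.

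Cluster 5 (24 cells) also went against the label in part. Its leading genes were of the stroma and of platelets, together with Lyz2, but most came from single cells and were no shared trait of the 24. Ppbp and Itga2b came almost wholly from 1 Control 1 cell, with 502 megakaryocyte UMIs per 10000, and were not among the 25 leading genes without it. All 145 UMIs of Acta2 and 359 of 400 UMIs of Col3a1 in Fracture 2 came from 1 cell each, as did 1940 of 2010 UMIs of Mgp in Control 1. The cluster held 10 and 6 cells of the Control preparations and 2 and 6 of the Fracture preparations. Its preparations were unlike each other. In Control 1, 1 cell held 893 of 908 UMIs of Pf4 and 1 cell 1193 of 1274 UMIs of Col2a1. Lyz2 was 396 CPM in Control 1 and 6062 CPM in Control 2, and 139 and 2833 CPM without the highest cell of each. The 6 Control 2 cells had 0 UMIs of Col3a1 and Ppbp. They held 1733 CPM of Ly6c2, 515 CPM of Ccr2 and 1311 CPM of Ms4a6c, each above clusters 1 to 4 of Control 2. The 10 Control 1 cells had 249, 157 and 380 CPM of these monocyte genes. Settings without cluster 5 thus also leave out the Control 2 cells with the highest levels of these genes. Of its cells, 18 of 24 held at least 20 stromal UMIs per 10000, counted over the marker genes of cartilage, bone, stroma and fibroblasts. As doublets 3 were called, the only ones among the 380. Doublet calling had not worked in Control 2 library 2, Fracture 1 library 2 and Fracture 2 library 1, so the lack of calls there is uninformative. Without cluster 5 the share was 2.29% and 0.707% in Control and 0.0337% and 0.0313% in Fracture, and the ratio to neutrophil-lineage cells was 1.25 and 0.691 in Control and 0.182 and 0.308 in Fracture, where the groups no longer overlapped (exact permutation p = 0.333).

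The 16 Fracture progenitors were mixed. In Fracture 1, all 6 held Mpo, at 9.28 to 44.9 UMIs per 10000. In Fracture 2, 6 of 10 held fewer than 2 UMIs of Mpo per 10000, and 4 of these 6 held at least 20 of Lyz2 per 10000. The same pair of limits, set after the values were seen, was met by 0 of 302 and 2 of 62 progenitors in Control. The other 2 of the 6 held Dntt, at 12.6 UMIs per 10000 or more. Lyz2 over all Fracture 2 progenitors stood at 5500 CPM, with 3168 and 9844 CPM in its libraries, against 142, 726 and 891 CPM in the other 3 preparations. A fit of Fracture against Control across genes was not made, since Fracture 1 held under 10 progenitors.

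Markers of other cells were measured beside these results. Stromal genes took a median of 11.3 and 5.59 UMIs per 10000 in the Control progenitors and 24.3 and 44.1 in the Fracture progenitors, where the medians over all cells were 218 and 33.1 in Control and 1157 and 1139 in Fracture. All 16 Fracture progenitors and 33 and 3 Control progenitors were at or above 20 per 10000. One Fracture 2 cell held 581 per 10000. The order of the preparations in the progenitors was near that in all cells of the same suspension, and the part of stromal RNA in the levels above was not tested.

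Megakaryocyte genes summed to 6.92 and 0.667 UMIs per 10000 in the Control progenitors, against 53.0 and 16.7 in the cells without Ptprc, and to 0.453 and 6.94 in Fracture. Without the 1 highest cell of Control 1 and of Fracture 2 these values were 2.37 and 2.59. Of 8 osteoclast markers, Atp6v0d2, Ocstamp and Calcr had 0 UMIs, and the list summed to 0.0673 and 0.0340 per 10000 in Control and 0.302 and 1.29 in Fracture. The Fracture 2 value came from library 1 alone, with 168 CPM of Ctsk and 30.5 CPM of Acp5. Of 7 macrophage markers, C1qa, C1qb, C1qc and Cd5l had 0 UMIs, and only Cd163, a scavenger receptor, reached 20 CPM (25.4 CPM in Control 1). Cd3e, Cd3g and Trbc2 of T cells and Cd79a and Pax5 of B cells had 0 UMIs. The B cell list as a whole, which also holds Dntt and Cd79b, was not absent. It summed to 1.06 and 1.17 UMIs per 10000 in Control and 0.302 and 4.06 in Fracture. In Fracture 2 Dntt alone stood at 317 CPM. Neutrophil-lineage cells of Control held 0.504 and 0.535 per 10000 of the list. The genes named here with 0 UMIs had none in any of the 380 cells.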

How the data were processed

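Droplet (10x Chromium 3′) single-cell RNA sequencing was analysed for 8 libraries. The authors deposited UMI counts for every gene in every cell, not normalised. The submitters' processing notes name bcl2fastq 2.19.1.403, UMI-tools 1.0.0, STAR 2.7.3a, featureCounts 1.6.4 and mm10. Barcodes kept (45328 of 48903) held 500 to 6000 genes and at most 25% mitochondrial UMIs. Libraries were summed per preparation. The labels do not say whether preparations came from separate mice, so p-values measure only the spread between preparations. Counts were summed per class and given as CPM. Shares were compared by exact permutation tests in scipy 1.17.1. No test was run on levels, which the rule had used. Genes were compared where the mean of the Control preparations reached 20 CPM in either class. A fit across genes was planned for preparations with at least 10 members and was not made. In each library scrublet (scanpy 1.11.5, expected rate 6%) scored doublets, 718 in all. It marked under 0.5% in 3 libraries and had not worked there. Doublets were kept. Clusters were made from 1000 variable genes, 15 components and Leiden at a resolution of 0.5. The members, lists, limits and markers were chosen with earlier results of these data known. Named genes were the 15 with the largest ratio of members to other cells (at least 100 CPM), the 2 to 4 highest of each list and those past 2-fold; others were chosen after their values were seen. Call rule and thinning were tested on simulated data. Coordinates are from GENCODE M21 (GRCm38). Intervals and floors cover counting error only. Software was Python 3.11.15 with numpy 2.4.6, pandas 2.3.3, igraph 0.11.9 and matplotlib 3.10.9. Some genes of the lists are not reported here.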

Additional observations from a re-analysis of the deposited data

Results flagged for a closer look

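Fracture preparation 1 library 2 stood apart from the other 3 Fracture libraries in its share of Irf8 progenitors, with 1 cell among 6069, or 0.0165%, against 0.0779% to 0.0862%. Its gap to the nearest library was 0.880 of the range of the 4 libraries, past Dixon's 95% limit of 0.829, which chance exceeds in about 1 of 20 groups. Its exact binomial interval reached 0.0918% and so covers the other 3 values.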

How the results depend on the processing

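The share of Irf8 progenitors was lower in Fracture under every alternative tried, by 0.956 (cells thinned to 3000 UMIs) to 1.81 percentage points (cells with at least 3000 UMIs), except over cells with Ptprc, where the difference was -3.41 points and the groups overlapped. Leaving out a preparation in turn gave 0.718 to 2.30 points lower, the smallest without Control 1. The difference in the ratio to neutrophil-lineage cells was -0.507 and, with granule genes at least 50 per 10000, -1.14, where the groups no longer overlapped (exact permutation p = 0.333), as when thinned to 3000 UMIs (0.505 and 0.327 against 0.148 and 0.167). Leaving out a preparation gave ratios lower by 0.244 to 0.770. For the share with Top2a or Mki67 these gave differences from -23.1 to 3.61 points, the reversal coming without Fracture 2. With preparation numbers as a block, the differences were -1.51 points for the share (exact permutation p = 0.5, the smallest of 2 pairs), -0.507 for the ratio (exact permutation p = 1) and -9.72 points for Top2a or Mki67 (exact permutation p = 1). The numbers are not known to pair preparations; over all cells, the deviations of same-numbered preparations correlated at r = 0.22 across 6271 genes. The block, the settings without cluster 5 and those without Fracture 1 library 2 were chosen after seeing the data. The fits across genes and their alternatives were not run, since Fracture 1 held 6 progenitors, under the minimum of 10. Depth limits the Fracture levels: 3 counts were 45.3 and 29.7 CPM there.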

Other observations

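A few genes that belong to none of the findings above stood out in the levels. Cd79b, a chain of the B cell receptor complex, was found in 50.8% of the Irf8 progenitors at 43.4 and 44.9 CPM in Control, with 28.2 and 40.7 CPM in neutrophil-lineage cells, while its partner Cd79a had 0 UMIs. S100a4, a calcium-binding protein used here as a fibroblast marker, stood at 87.7 and 199 CPM in the Control progenitors against 22.6 and 0.754 CPM in neutrophil-lineage cells. Egfl7 and Pecam1, both also known from endothelium, stood at 115 and 96.7 CPM and at 143 and 135 CPM, in cells chosen for 0 UMIs of Cdh5.

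Il1b stood at 45.8 CPM in the progenitors of Control 1 and 4.77 CPM in those of Control 2, and at 78.6 and 0.754 CPM in the neutrophil-lineage cells.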
